A study of Mus musculus with 6 samples.

Results

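Mitochondrial ribosomal proteins are the nuclear-encoded proteins of the ribosome inside mitochondria. The genes were taken as every entry of the deposited mouse table whose symbol is Mrpl or Mrps followed by a number and at most 1 letter, without pseudogenes, which gave 77 of 26106 genes. Of these, 50 encode proteins of the large subunit and 26 proteins of the small subunit, with Mrps30 and Mrps18a counted in the large subunit, where their proteins sit in spite of the names. The remaining gene, Mrps36, encodes a protein that is now placed in the oxoglutarate dehydrogenase complex. The cytosolic ribosomal proteins, whose symbols start with Rpl or Rps, served as a reference.

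The cells were macrophages grown from the bone marrow of wild-type (WT) C57BL/6 male mice 6 weeks old. For 2 days they received 10% serum (FBS), 30 ng/mL of the macrophage growth factor M-CSF and 100 ng/mL of RANKL, the cytokine that drives macrophages to become osteoclasts, the bone-resorbing cells. The 3 Ctrl libraries came from cells given these alone and the 3 ZM libraries from cells given 10 μM ZM in addition, the abbreviation for ZM-306416, an inhibitor of VEGF receptor kinases. No vehicle was named for the Ctrl cells. Whether replicates are separate mice or separate cultures is not stated in the labels, so each p-value refers to the spread between libraries, which may be technical.

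Mitochondrial ribosomes translate the small set of proteins encoded by mitochondrial DNA, all of them subunits of the respiratory chain and the ATP synthase. Their RNA comes from the mitochondrial genome, but every protein is made in the cytosol and imported, so the ribosome depends on expression from both genomes. Many of its proteins descend from bacterial ribosomal proteins, and others have no bacterial counterpart. Osteoclasts are rich in mitochondria, and their formation is known to be accompanied by a rise in mitochondrial mass.

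The upstream regions of 4 members are shown because 3 of them belong to genes that fell with ZM and the fourth, Mrpl39, had the fold nearest to 0. Each run is the 250 bases before the annotated start in RefSeq (GRCm38.p6), 5′ to 3′ on the gene's own strand, and capitals mark a match to a motif named here. The regions are chr16:92058086-92058335 (forward strand), chr9:98601680-98601929 (reverse strand), chr11:120484387-120484636 (forward strand) and chr16:84735245-84735494 (reverse strand).
Mrps6: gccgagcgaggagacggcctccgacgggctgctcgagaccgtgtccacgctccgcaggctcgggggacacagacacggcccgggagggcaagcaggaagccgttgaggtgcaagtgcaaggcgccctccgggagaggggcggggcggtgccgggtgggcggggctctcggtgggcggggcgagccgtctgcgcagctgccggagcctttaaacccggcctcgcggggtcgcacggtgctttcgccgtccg
Mrps22: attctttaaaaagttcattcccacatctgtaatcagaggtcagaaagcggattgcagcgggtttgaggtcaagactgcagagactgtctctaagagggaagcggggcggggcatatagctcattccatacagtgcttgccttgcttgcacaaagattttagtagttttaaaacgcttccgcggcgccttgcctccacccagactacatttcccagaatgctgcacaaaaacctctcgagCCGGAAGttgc
Mrpl12: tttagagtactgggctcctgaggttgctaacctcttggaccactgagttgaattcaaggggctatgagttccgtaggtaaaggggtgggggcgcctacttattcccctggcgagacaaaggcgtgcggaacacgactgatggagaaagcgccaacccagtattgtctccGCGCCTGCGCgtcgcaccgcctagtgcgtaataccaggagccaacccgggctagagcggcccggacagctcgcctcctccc
Mrpl39: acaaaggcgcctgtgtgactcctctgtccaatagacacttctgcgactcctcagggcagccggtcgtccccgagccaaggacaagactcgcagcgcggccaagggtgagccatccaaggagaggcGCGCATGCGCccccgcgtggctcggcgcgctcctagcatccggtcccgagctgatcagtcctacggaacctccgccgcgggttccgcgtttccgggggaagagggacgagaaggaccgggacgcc
In Mrps22 the capitals mark CCGGAAG, a core motif of ETS factors such as GABP, beginning 11 bases before the start. In Mrpl12 and in Mrpl39 they mark the motif of the factor NRF1, GCGCA and GCGC with any base between, read on either strand. They begin 81 and 125 bases before the RefSeq start. In a second annotation, GENCODE, Mrpl39 starts at 84735742, so its printed region and the motif in it lie inside the gene. The last bases of the Mrpl12 region likewise lie past the GENCODE start of Mrpl12, at 120484613. The Mrps6 region held neither of these motifs.

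These are motifs of factors known to act on genes for mitochondrial proteins, and 4 were counted on both strands in the 300 bases from 250 before to 50 after each start. RefSeq entries were matched for 68 of the 77 members, with 74 promoters between them. The NRF1 motif was present in 17.6% of the members' promoters, in 6.67% of the cytosolic ribosomal proteins' promoters, in 9.39% of those of tested genes and in 4.6% of all promoters in the table. CCGGAAG was present in 33.8% of the members' promoters, against 33.3%, 16.9% and 8.86% in the same 3 sets. AAGATGGCG, the motif of YY1, was in 10.8% of the members' promoters, against 8.0%, 2.83% and 1.40%. The E-box CACGTG, which MYC and related factors bind, was in 9.46% of the members' promoters, against 10.7%, 9.72% and 7.15%. In the members' promoters, matches to different motifs overlapped in 0 of 74. The ETS core and the YY1 motif were thus counted more often in the promoters of both ribosomal protein sets than in those of all tested genes, and the NRF1 motif more often in those of the members than in the other 3 sets.

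Sequencing gave 45512004 to 49613493 counts per Ctrl library and 51329237 to 54256377 per ZM library, and 15590 genes were abundant enough to test. The libraries of the ZM group stood further apart than those of the Ctrl group. The first principal component held 73.9% of the variance, and its scores ran from -32.2 to -28.2 in Ctrl and were 4.94 in ZM replicate 2, 20.6 in replicate 1 and 63.6 in replicate 3. Counts from ribosomal RNA gene Rn18s were 0.130% to 0.193% of the Ctrl libraries and 0.0919%, 0.241% and 0.565% of ZM replicates 1, 2 and 3. Of 8 macrophage markers 5 rose and 0 fell, and all 8 osteoclast markers fell, with a median log2 fold of -2.98. None of the 5 macrophage markers (Adgre1, Cd14, Mertk, Lyz2 and Itgam) was called with any 1 Ctrl library left out. The osteoclast marker Calcr, with an adjusted p of 0.0494 (edgeR), was called in 1 of the 6 fits that leave out a library. Ocstamp was called in 2 and Itgb3 in 3 of these fits, and Acp5, Ctsk, Dcstamp, Mmp9 and Nfatc1 in all 6. Of the 8 osteoclast markers, limma-voom called 7. Markers of other marrow cells were low in every library, with a summed level of at most 4.30 CPM for any list, where CPM is the usual count scaled to library size. Each sum covers the listed markers that are present among the 26106 genes. The summed level ranged from 3.74 to 4.30 CPM in Ctrl and from 0.741 to 1.15 CPM in ZM for 6 erythroid markers. For 4 neutrophil markers it ranged from 1.71 to 2.73 and from 1.85 to 1.99 CPM. It ranged from 0.364 to 0.597 and from 0.706 to 1.74 CPM for 4 B cell markers, and from 0.412 to 0.955 and from 0.296 to 0.635 CPM for 5 T and NK cell markers. For 7 stromal markers it ranged from 1.96 to 3.96 and from 2.98 to 4.24 CPM, and for 6 dendritic cell markers from 2.40 to 3.5 and from 2.56 to 3.04 CPM. A single gene fell in each of 4 of these lists, and the part of these genes in the members' values was not tested. Hbb-bs (log2 fold -2.63) was 1 of 3 erythroid markers tested, all with negative folds. S100a9 (-3.58) was 1 of 2 neutrophil markers tested, with the other at -0.01. Trac (-2.20) was 1 of 2 T and NK cell markers tested, with the other at 1.17. Xcr1 (-2.56) was 1 of 5 dendritic cell markers tested, and the other 4 had positive folds. In bulk samples, fewer cells of a type and less RNA per cell cannot be told apart, so a lower member level may be either.

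All 77 members passed the filter on low counts, with no fewer than 400 counts in any library. With ZM, 4 of them fell, 0 rose and 73 did not pass the test, which was edgeR's quasi-likelihood test with Benjamini-Hochberg adjustment over all 15590 genes and a threshold of 0.05. The 4 that fell were Mrps6, Mrps22, Mrps35 and Mrpl12. They are 5.19% of the members, beside 11% of all genes called in either direction, 5.44% called lower and 5.54% called higher, so the share of members called lower was near the background.

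The members' log2 folds, ZM against Ctrl, had a median of 0.02 with quartiles at -0.12 and 0.17, where the median over all genes was 0.00. The quartiles over all genes were -0.31 and 0.31, further apart than the members' own. There were 36 negative and 41 positive folds, from -0.84 for Mrps6 to 0.43 for Mrpl33. The 95% interval of the fold lay within 2-fold either way for 76 of the 77 members and within 1.5-fold for 58. Mrps6 was the exception at 2-fold. Without adjustment, p (edgeR) was under 0.05 for 19 members (24.7%), 13 of them lower and 6 higher, beside 32% of all genes. DESeq2 called 10 members lower and 2 higher, with 21.1% of all genes called. In limma-voom 4 members (5.19%) were called lower and 0 higher, with 10.5% of all genes called. The 3 ZM values lay wholly below the 3 Ctrl values for 17 members (22.1%), beside 21.4% of all genes, and wholly above them for 9 (11.7%), beside 21.5%.

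**Figure D1:**
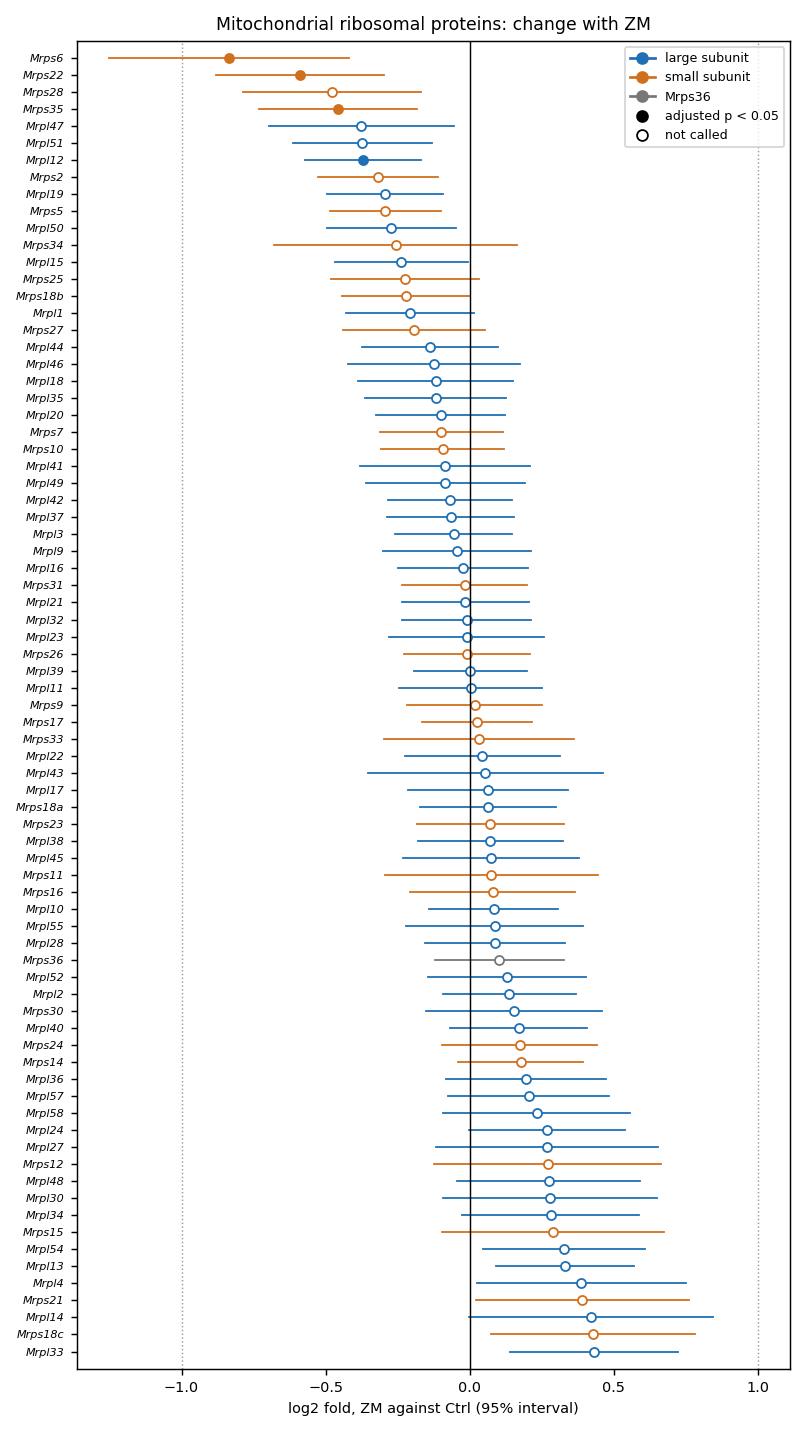
Log2 fold of each of the 77 mitochondrial ribosomal protein genes, ZM against Ctrl, on the x axis, with points for the estimate and lines for its 95% interval (edgeR, 3 libraries per group). Filled points are the 4 genes with an adjusted p under 0.05, Mrps6, Mrps22, Mrps35 and Mrpl12, and the dotted lines mark 2-fold, which only the interval of Mrps6 crosses.

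The calls were sensitive to which libraries entered the fit. With any 1 Ctrl library left out, 0 members were called in either direction, and the calls over all genes dropped from 1711 to between 148 and 224. Without ZM replicate 1, Mrps22 and Mrps6 were called lower and 0 members higher, which is 2.6% of the members beside 4.17% of all genes in that fit. Without ZM replicate 3, 10 members were called lower and 1, Mrpl33, higher, or 14.3% beside 19.5% of all genes. Without ZM replicate 2, 9 were called lower and 13 higher, or 28.6% beside 31.4% of all genes.

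Among the small-subunit proteins, Mrps6 had the lowest fold. It is the counterpart of the bacterial protein that sits beside the small-subunit protein S18, lies on chromosome 16 from 92058270 to 92112227 on the forward strand, and carries the identifier ENSMUSG00000039680. Its level was 19.7, 17.9 and 21.6 CPM in Ctrl replicates 1, 2 and 3 and 14, 9.91 and 9.24 CPM in ZM replicates 1, 2 and 3. All ZM libraries were below all Ctrl libraries, and ZM replicate 1 was the highest of its group. The mean was 19.7 ± 1.90 CPM in Ctrl and 11.1 ± 2.58 CPM in ZM (SD, n = 3 libraries each). The log2 fold was -0.84 (SE 0.18, 95% interval -1.25 to -0.42, adjusted p = 0.0301, edgeR), or 1.78-fold lower.

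The start of Mrps6 is shared with another gene. Slc5a3, which encodes a sodium-coupled importer of myo-inositol, begins 52 bases downstream on the same strand, at 92058322, and shares 159 exonic bases with Mrps6, or 10.4% of the annotated exons of Mrps6. Slc5a3 was at 101.5, 69.7 and 93.2 CPM in the Ctrl libraries and 24.1, 24.4 and 10.6 CPM in the ZM libraries. It fell by 2.16 on the log2 scale (SE 0.32, adjusted p = 0.00969, edgeR), and it held 16050 counts over the 6 libraries where Mrps6 held 4628. The part of reads from Slc5a3 in the fall of Mrps6 was not tested, and Slc5a3 was singled out after its values were seen. The region printed for Mrps6 was set by the RefSeq start, which lies further along than the GENCODE one, so that region takes in the GENCODE starts of both genes.

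Mrps22 is a small-subunit protein without a bacterial counterpart, on chromosome 9 from 98588730 to 98601660 on the reverse strand (ENSMUSG00000032459). Its level was 32.4, 30.7 and 30.7 CPM in the Ctrl libraries and 23.7, 21 and 17.7 CPM in the ZM libraries. The Ctrl values lay close together, and the highest ZM value was below each of them. Mrps22 fell by 0.59 on the log2 scale (SE 0.13, 95% interval -0.88 to -0.30, adjusted p = 0.0301), or 1.5-fold, from 31.3 ± 0.962 to 20.8 ± 3.01 CPM. Its exons overlapped those of no other annotated gene.

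Mrps35 is likewise a mitochondria-specific protein of the small subunit, on chromosome 6 from 147042764 to 147073991 on the forward strand (ENSMUSG00000040112). Its level was 30.1, 30.2 and 33.6 CPM in the Ctrl libraries and 24.6, 19.8 and 24.0 CPM in the ZM libraries. The groups did not overlap, and ZM replicate 2 was the lowest library. Mrps35 fell by 0.46 on the log2 scale (SE 0.12, 95% interval -0.73 to -0.18, adjusted p = 0.0485), or 1.37-fold, from 31.3 ± 1.97 to 22.8 ± 2.60 CPM. Of the 77 members it has the longest annotated exons, 8631 bases, and in a fit with a gene length term its log2 fold was -0.29 with an adjusted p of 0.230.

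Mrpl12 is the only large-subunit gene called. It encodes the stalk protein of the large subunit, which is also known to bind the mitochondrial RNA polymerase, and lies on chromosome 11 from 120484613 to 120489065 on the forward strand (ENSMUSG00000039640). Its level was 182, 169 and 183 CPM in the Ctrl libraries and 145, 136 and 132 CPM in the ZM libraries. The ZM values were the closest together, relative to their mean, of the 4 genes called. Mrpl12 fell by 0.37 on the log2 scale (SE 0.09, 95% interval -0.57 to -0.17, adjusted p = 0.0388), or 1.29-fold, from 178 ± 7.56 to 138 ± 6.37 CPM.

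**Figure D2:**
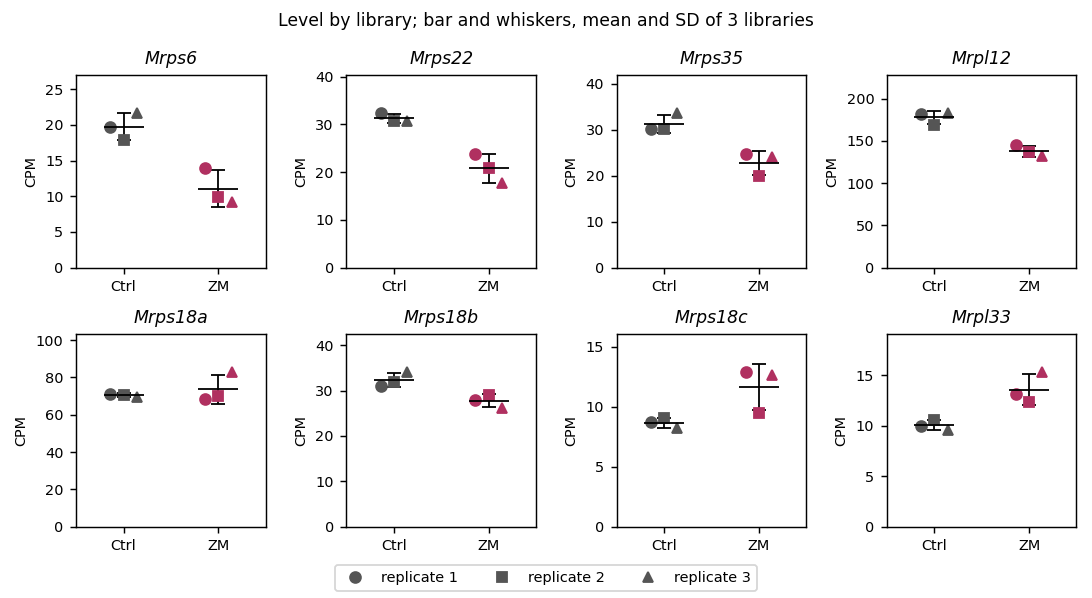
Level in CPM (y axis, starting at 0) of 8 members in each Ctrl and ZM library, with symbols for the replicate numbers and bars and whiskers for the mean and SD of 3 libraries. In the upper row Mrps6, Mrps22, Mrps35 and Mrpl12 are lower in each ZM library than in each Ctrl library; in the lower row Mrps18b lies lower, Mrps18c and Mrpl33 higher and Mrps18a overlaps, none of these 4 with an adjusted p under 0.05.

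Several genes lay close to the threshold of 0.05. Mrps35 at 0.0485 and Mrpl12 at 0.0388 were the members nearest inside it, and Mrpl51 at 0.0591 and Mrps28 at 0.0591 the nearest outside. Mrpl51, a mitochondria-specific protein of the large subunit, was at 82.1, 83.9 and 89.0 CPM in the 3 Ctrl libraries and 73.6, 62.1 and 61.3 CPM in those with ZM, with a log2 fold of -0.37 (SE 0.10). Mrps28, a small-subunit protein, was at 21.7, 20.5 and 24.2 CPM in the 3 Ctrl libraries and 18.1, 15.6 and 14 CPM in those with ZM, with a log2 fold of -0.48 (SE 0.13). For both, each ZM library was below each Ctrl library, so the line between genes called and not called ran through a continuous series of values.

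By subunit, 3 of 26 small-subunit genes (11.5%) and 1 of 50 large-subunit genes (2%) were called lower, beside 5.44% of all genes. None of them was called with any 1 Ctrl library left out. The median log2 fold was -0.01 over the small subunit and 0.05 over the large one, and the difference between them was not tested. Among the small-subunit genes, the 10 listed as without a bacterial counterpart had a median of -0.21, with 8 negative folds. Of these 10, 2 were called (20%), Mrps22 and Mrps35. The 10 include Mrps18b, and the 20 mitochondria-specific large-subunit genes below include Mrps18a, both paralogs of the bacterial protein S18. The 16 with a bacterial counterpart had a median of 0.05, with 6 negative folds and 1 gene called (6.25%), Mrps6. In the large subunit the median was 0.02 over 30 genes with a bacterial counterpart, of which Mrpl12 was called. It was 0.06 over 20 mitochondria-specific genes, of which 0 were called by edgeR or limma-voom. DESeq2 called 2 of these 20, with 21.1% of all genes called. An unadjusted p under 0.05 was found for 3 (15%), beside 32% of all genes. Summed per length, the large subunit stood to the small subunit at a ratio of 2.36, 2.35 and 2.33 in the Ctrl libraries and 2.31, 2.38 and 2.23 in the ZM libraries. The groups overlapped in this ratio.

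Mammals have 3 paralogs of the bacterial small-subunit protein S18, and their values lay in different directions. Mrps18c, the paralog in the classical S18 position beside Mrps6, was at 8.70, 9.05 and 8.22 CPM in the 3 Ctrl libraries and 12.8, 9.44 and 12.6 CPM in those with ZM, with a log2 fold of 0.43 (SE 0.15, adjusted p = 0.106). Mrps18b, a small-subunit protein at another position, was at 31.0, 32.0 and 34.0 CPM in the 3 Ctrl libraries and 27.8, 29.1 and 26.2 CPM in those with ZM, with a log2 fold of -0.22 (adjusted p = 0.156). Mrps18a, the large-subunit paralog, was at 71.3, 70.7 and 69.4 CPM in the 3 Ctrl libraries and 68.2, 69.9 and 82.6 CPM in those with ZM, with a log2 fold of 0.06 (adjusted p = 0.684). None of the 3 passed the test, and for Mrps18c ZM replicate 2 stood only just above the Ctrl libraries.

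The highest fold belonged to Mrpl33, a small protein of the large subunit, at 10.0, 10.6 and 9.59 CPM in the 3 Ctrl libraries and 13.1, 12.4 and 15.3 CPM in those with ZM. Its ZM values were all above its Ctrl values, and its log2 fold of 0.43 (SE 0.13, 95% interval 0.14 to 0.72) had an adjusted p of 0.0671, outside the threshold. Mrpl58, a peptidyl-tRNA hydrolase built into the large subunit, was at 20.2, 25.1 and 22.6 CPM in the 3 Ctrl libraries and 25.8, 23.2 and 30.8 CPM in those with ZM, with a log2 fold of 0.23 (adjusted p = 0.278). Mrps12, a protein of the decoding centre, was at 21.1, 20.2 and 23.1 CPM in the 3 Ctrl libraries and 25.1, 20.5 and 32.2 CPM in those with ZM, with a log2 fold of 0.27 (adjusted p = 0.297). In both the groups overlapped, and ZM replicate 3 was the highest library. Mrps36 was at 33.8, 37.1 and 36.2 CPM in the 3 Ctrl libraries and 36.7, 37.2 and 41.0 CPM in those with ZM, with a log2 fold of 0.10 (adjusted p = 0.477). Mrpl39, whose fold was nearest to 0, was at 43.9, 44.2 and 44.2 CPM in the 3 Ctrl libraries and 45.1, 45.0 and 42.4 CPM in those with ZM.

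To compare genes with each other, levels were set per kilobase of annotated exon (RPKM). The members had a median of 15.7 RPKM over the 6 libraries, against 217 RPKM for the cytosolic ribosomal proteins. Mrpl12 was the most abundant member, at 116 ± 4.94 RPKM in Ctrl and 89.9 ± 4.16 RPKM in ZM. It was followed by the small-subunit protein Mrps21, at 73.8 ± 2.57 and 96.7 ± 21.6 RPKM, and the large-subunit protein Mrpl52, at 79.3 ± 0.691 and 86.7 ± 12.8 RPKM. Neither of these 2 passed the test, and in the ZM libraries Mrpl12 and Mrps21 did not differ beyond their spread. At the lower end stood Mrpl33, at 1.37 ± 0.0682 and 1.85 ± 0.205 RPKM, then Mrps30, at 2.87 ± 0.0813 and 3.19 ± 0.489 RPKM, and Mrps35, at 3.63 ± 0.228 and 2.64 ± 0.301 RPKM. The exon lengths behind these values run from 607 to 8631 bases, and for Mrpl33 and Mrps35 they are 7326 and 8631 bases, the union of all annotated transcripts, so the level per length of genes with long rare exons is understated.

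**Figure D3:**
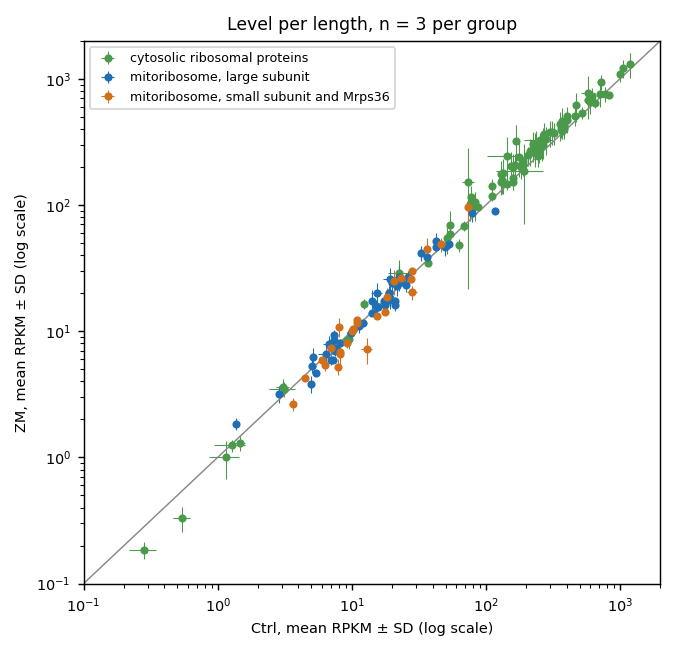
Mean level per length in Ctrl (x axis) and ZM (y axis) for the 77 members and the 86 cytosolic ribosomal proteins tested, in RPKM on log scales, with whiskers for the SD of 3 libraries and a line where both groups are equal. The members, with a median of 15.7 RPKM, lie along the line and mostly below the cytosolic ribosomal proteins, with a median of 217 RPKM.

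Taken per library, the 3 ZM libraries lay on different sides of the Ctrl mean. The median log2 deviation of the 77 members from their Ctrl means was -0.01, -0.02 and 0.03 in the Ctrl libraries and 0.04, -0.12 and 0.13 in ZM replicates 1, 2 and 3. Of the 3 ZM libraries, replicate 2 held the lowest value for 58 members and replicate 3 the highest for 48. The spread of the deviations over members was 0.0497 to 0.0516 (SD) in the Ctrl libraries and 0.204, 0.201 and 0.360 in the ZM libraries. Within a group, the coefficient of variation of a member had a median of 3.84% in Ctrl and 11.4% in ZM, and it was higher in ZM for 73 of 77. Over all genes the same medians were 6.31% and 19.3%, so the ZM group was wider over all genes as well.

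Summed over the members, the level was 3139, 3099 and 3225 CPM in Ctrl and 3210, 2852 and 3371 CPM in ZM. These ranges overlap, and the ratio of the means was 0.997 (3155 ± 64.2 and 3145 ± 266 CPM). Set per length and scaled to a common library total (TPM), the sum was 4897, 4819 and 4944 in Ctrl and 4623, 4378 and 4288 in ZM. On that scale the groups did not overlap, and the ratio of the means was 0.906 (4887 ± 63.2 and 4430 ± 173 TPM). The summed level thus differed between groups on one scale and not on the other, and TPM depends on the length and level of every other gene.

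Cytosolic ribosomal proteins had folds above 0 more often. Of 87 structural genes 86 were tested, 0 fell, 2 rose (2.33%) and 84 did not pass. Over all genes, 5.44% were called lower and 5.54% higher. There were 71 positive folds among the cytosolic genes, and their median log2 fold was 0.23. That median was 0.07 without ZM replicate 3, 0.33 without ZM replicate 2 and 0.10 with a gene length term. At an unadjusted p under 0.05 there were 1 lower and 13 higher (16.3%, beside 32% of all genes). DESeq2 called 1 lower and 5 higher, with 21.1% of all genes called. The 2 that rose were Rps27, from 175 ± 7.36 to 332 ± 112 CPM (log2 fold 0.92, adjusted p = 0.0405), and Rpl22l1, a paralog of Rpl22, from 24.4 ± 0.737 to 32.7 ± 3.06 CPM (log2 fold 0.42, adjusted p = 0.0435), both named after their values were seen. Neither was called with any 1 Ctrl library left out. Without ZM replicate 2 the number of cytosolic genes called higher was 40, in a fit that called 31.4% of all genes. The median deviation of the cytosolic genes was -0.02, -0.02 and 0.04 in the Ctrl libraries and 0.20, -0.10 and 0.47 in ZM replicates 1, 2 and 3. Thus ZM replicate 2 was the lowest ZM library and ZM replicate 3 the highest for both kinds of ribosome. In TPM, cytosolic ribosomal proteins stood to the mitochondrial ones at 15.0, 15.1 and 15.3 in Ctrl and at 16.8, 15.7 and 18.6 in ZM, without overlap. With 3 libraries against 3 an exact two-sided permutation test cannot give a p under 0.10, and none was run. Many cytosolic ribosomal protein genes have near-identical pseudogenes, 193 of which have symbols of the same pattern here, so reads may be split among copies. Among the members, Mrpl27 has a pseudogene whose total count came to 10.8% of that of Mrpl27. For the pseudogene of Mrpl48 this was 4.47%, and for the others known at most 1.20%.

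**Figure D4:**
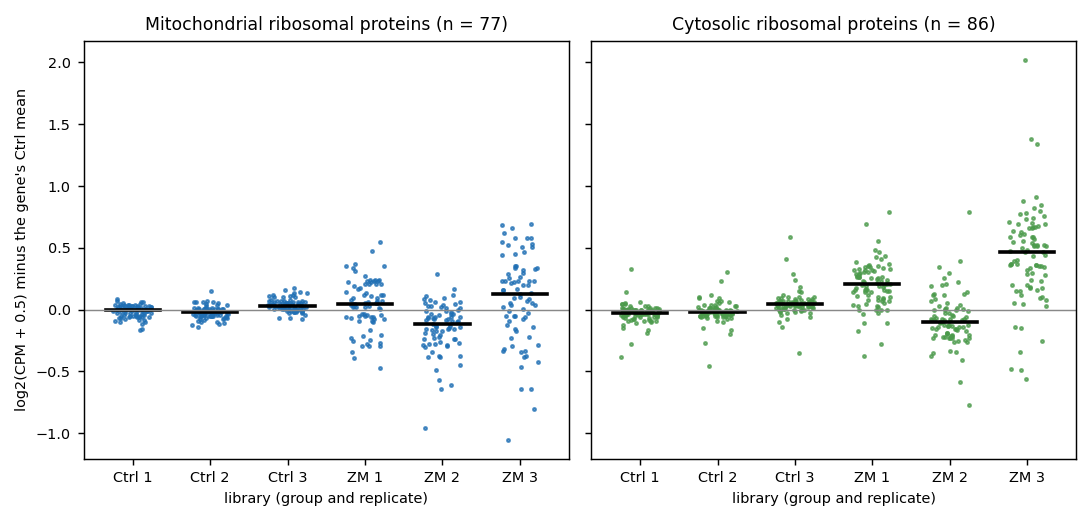
Deviation of each gene's log2(CPM + 0.5) from its Ctrl mean (y axis) in each of the 6 libraries (x axis), with a point per gene and a bar for the median, for the 77 mitochondrial and 86 cytosolic ribosomal proteins. In both panels ZM replicate 2 has the lowest median of the ZM libraries (-0.12 and -0.10) and ZM replicate 3 the highest (0.13 and 0.47).

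Annotated exon length was related to the members' folds about as it was over all genes. Spearman's rho between log2 fold and length was -0.26 over the 77 members, 0.01 over 86 cytosolic ribosomal proteins and -0.22 over all genes tested. These are descriptions across genes that share the same 6 libraries. In the shortest 26 members, 607 to 1667 bases, the median log2 fold was 0.09, in the middle 25 it was 0.00, and in the longest 26, 3332 to 8631 bases, it was -0.06. All genes in the same length ranges had medians of 0.13, 0.13 and -0.03.

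The members lie on 17 chromosomes, with 11 on chromosome 11 and 8 on chromosome 17. For 33 of the 77 (42.9%) the start lies within 1000 bases of the start of a protein-coding gene on the opposite strand, against 16.3% of tested protein-coding genes. Examples are Mrps12 with Sars2, a mitochondrial seryl-tRNA synthetase gene, 172 bases apart, Mrpl36 with Ndufs6, a gene of respiratory complex I, 29 bases apart, and the pair Mrpl46 and Mrps11, 412 bases apart, both of them members. Of 31 such partners tested, which include Mrpl46 and Mrps11, 1 was called lower and 0 higher, beside 5.44% and 5.54% of all genes. The partners' median log2 fold was -0.12, where the median over all genes was 0.00. The 1 called was Wdfy1, which shares 126 exonic bases on the opposite strand with Mrpl44 and fell by 0.89 on the log2 scale (adjusted p = 0.00443). Mrpl44 itself had a log2 fold of -0.14 (adjusted p = 0.365). Exons of 32 members overlap those of another annotated gene. For 20 of these a partner's own total count is over 10% of the member's total count. This compares 2 totals and is not a share of the member's reads. The strand setting of the counting is not given in the sources used here, so for opposite-strand pairs it is uncertain which gene a shared read came from. For same-strand pairs, such as Mrps6 with Slc5a3 and Mrps24 with Urgcp, this is uncertain under any strand setting.

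Split by promoter motif, the members' folds lay close together. The median log2 fold was 0.02 in 13 members with the NRF1 motif and 0.02 in 55 without it. It was 0.06 in 25 members with the ETS core and -0.01 in 43 without it, and 0.00 in 8 members with the YY1 motif and 0.02 in 60 without it. The E-box was held by 5 members, with a median of 0.14, against 0.02 in 63. A match is a run of letters in the window and was not tested as a binding site.

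The genes that work with the mitochondrial ribosome were described from lists chosen by function. The list of mitochondrial translation factors also held Lrpprc, which acts on the messages. Of its 16 genes tested, 3 were called lower and 0 higher, with a median log2 fold of -0.32. The 3 are 18.8% of the list, beside 5.44% of all genes called lower, and 10 (62.5%) had all ZM values below all Ctrl values, beside 21.4% of all genes. Tufm, the elongation factor that brings charged tRNA to the ribosome, was at 113, 111 and 123 CPM in the 3 Ctrl libraries and 93.5, 73.6 and 86.2 CPM in those with ZM and fell by 0.45 on the log2 scale (adjusted p = 0.0446). Gfm1, the factor that moves the ribosome along the message, was at 108, 111 and 106 CPM in the 3 Ctrl libraries and 76.4, 77.9 and 51.2 CPM in those with ZM and fell by 0.66 (adjusted p = 0.0425). Lrpprc, which stabilises mitochondrial messages, was at 127, 121 and 129 CPM in the 3 Ctrl libraries and 88.2, 91.2 and 58.0 CPM in those with ZM and fell by 0.67 (adjusted p = 0.0475). In Gfm1 and Lrpprc the lowest library was ZM replicate 3, where the members' median was highest. None of Tufm, Gfm1 and Lrpprc was called with any 1 Ctrl library or ZM replicate 1 left out, when their adjusted p lay between 0.07 and 0.188. DESeq2 called 6 genes of this list lower and 0 higher, with 21.1% of all genes called.

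The 26 genes for assembly of the mitochondrial ribosome had a median log2 fold of 0.04. Of them, 1 (3.85%) was called lower and 0 higher, beside 5.44% and 5.54% of all genes. The 1 was Fastkd2, which binds the large ribosomal RNA and is needed for the large subunit, with 31.7 ± 1.19 CPM without and 22 ± 2.46 CPM with ZM, a fall of 0.53 on the log2 scale (SE 0.11, adjusted p = 0.0306), not called with any 1 Ctrl library or ZM replicate 1 left out. The 5 ribosomal proteins that carry other names, Dap3, Ptcd3, Chchd1, Aurkaip1 and Gadd45gip1, had 0 calls and a median of 0.01. Of these 5, 2 had an unadjusted p under 0.05 (40%, beside 32% of all genes). DESeq2 called 1 of the 5 lower, with 21.1% of all genes called. Of 20 mitochondrial aminoacyl-tRNA synthetases, which charge the tRNAs used by this ribosome, 0 were called by edgeR, with 15 negative folds and a median of -0.26. At an unadjusted p under 0.05 there were 7 lower and 1 higher (40%, beside 32% of all genes). DESeq2 called 2 lower, with 21.1% of all genes called. Of 10 genes for mitochondrial transcription and DNA maintenance 0 were called by edgeR and 2 lower by DESeq2, which called 21.1% of all genes. The median of the 10 was -0.07, and 3 (30%) had an unadjusted p under 0.05, beside 32% of all genes.

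On the mitochondrial genome's own side, 0 of 13 messages and 0 of 2 ribosomal RNAs were called by edgeR. The messages had log2 folds from -1.62 to 0.66 and a median of -0.01. At an unadjusted p under 0.05 there were 2 lower and 2 higher (30.8%, beside 32% of all genes). DESeq2 called 2 of the messages higher, with 21.1% of all genes called. The messages' summed level was 82348, 78964 and 77647 TPM in the Ctrl libraries and 67988, 79340 and 54946 TPM in ZM replicates 1, 2 and 3. The groups overlapped through ZM replicate 2, and the ratio of the means was 0.846. The ribosomal RNA of the small subunit, mt-Rnr1, had a log2 fold of 0.45 and that of the large subunit, mt-Rnr2, one of -0.17, in libraries made with an mRNA-seq kit, so the level of these RNAs depends on how far the kit carried them over. Among 9 regulators of mitochondrial gene expression tested, 1 (11.1%) was called lower and 0 higher, beside 5.44% and 5.54% of all genes. The regulator called was Ppargc1b, a coactivator of mitochondrial biogenesis known from osteoclasts. Its level was 28.2, 24.6 and 27.3 CPM in the 3 Ctrl libraries and 7.45, 8.63 and 5.70 CPM in those with ZM. It fell by 1.88 on the log2 scale (SE 0.17, adjusted p = 0.00235), or 3.67-fold, with the groups far apart. Myc, a transcription factor known to act on ribosomal genes, had 87.5 ± 3.64 CPM without and 95.2 ± 32.0 CPM with ZM (log2 fold 0.12, adjusted p = 0.742). Nrf1, whose motif is marked in the printed regions of Mrpl12 and Mrpl39, had a log2 fold of 0.00.

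**Figure D5:**
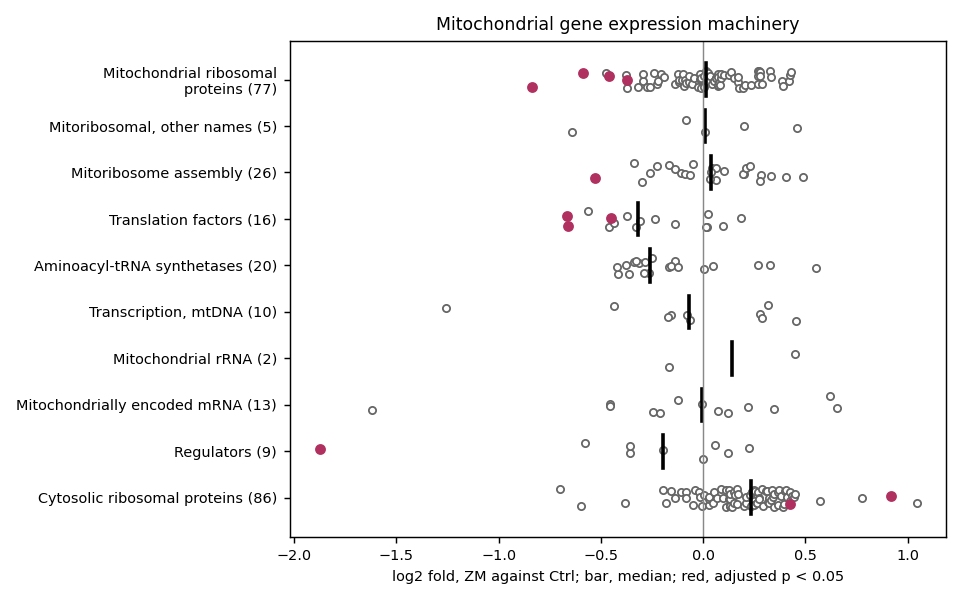
Log2 fold, ZM against Ctrl (x axis), of each tested gene of the mitochondrial ribosome, of the lists that work with it and of the cytosolic ribosomal proteins (y axis, number of genes in parentheses), with bars for the medians and filled red points for an adjusted p under 0.05. The medians lie at 0.02 for the members, -0.32 for the translation factor list, which includes Lrpprc, -0.26 for aminoacyl-tRNA synthetases and 0.23 for cytosolic ribosomal proteins.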

How the data were processed

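Counts per gene and library, as whole numbers that the authors deposited, were read for 3 Ctrl and 3 ZM libraries, and columns were assigned by their names. The tools in the submitters' processing notes are featureCounts 2.0.3 (Subread), HISAT2 2.2.1 and DESeq2, with build mm10; the annotation release and strand setting are not given in the sources used here. Between 72.7% and 76.4% of counts from 1 to 20 were even. The deposited FPKM values gave only the gene lengths, which equalled the GENCODE M21 exon union (GRCm38) for 77 of 77 members.

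The test was that of edgeR 4.0.16 (R 4.3.3): filterByExpr (15590 genes, 99.95% of counts), TMM, glmQLFit and glmQLFTest on group, with Benjamini-Hochberg adjustment over all genes tested. CPM and RPKM use the TMM-scaled library size, TPM does not. SE is the log2 fold over the square root of F. "Called", "rose" and "fell" mean an adjusted p under 0.05. The fit was checked on simulated counts. Of 290 symbols matching the cytosolic pattern, 193 pseudogenes and 10 other genes were set aside. The upstream bases are from RefSeq.

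The members and the gene lists were chosen with earlier results of these data known. Genes named were the members called (up to 6 per direction), the 3 most and 3 least abundant per length, the 2 nearest the threshold on each side, Mrps18a, Mrps18b, Mrps18c, Mrpl12, Mrpl58, Mrps12 and Mrps36, called genes of related lists (up to 3 each), Ppargc1b and Myc; others were chosen after their values were seen. Alternatives were other size factors, other filters, DESeq2 1.42.0, limma-voom (limma 3.58.1), a replicate block, a length term, counts divided by 2 and each library left out.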

Additional observations from a re-analysis of the deposited data

How the results depend on the processing

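The median log2 fold of the members, 0.02 as reported, lay between -0.06 with a gene length term and 0.08 without ZM replicate 2. For the cytosolic ribosomal proteins the median was 0.23 as reported and 0.10 under the length term. It was 0.07 without ZM replicate 3 and 0.33 without ZM replicate 2. Under all 16 alternatives both medians moved by less than the SD of the per-library medians within groups. That SD was wide in ZM, more so for the cytosolic genes, and comes from the same libraries. A fit with 1 library left out could therefore hardly exceed it, and no stability is read from those fits. Without a composition factor the median of all genes was -0.06 and that of the members -0.05. The count of members called lower, 4 as reported, was 2 with no filter (Mrps22 and Mrps6, with 7.98% of all genes called). It was 3 with upper-quartile factors (10.6% of all genes) and 6 with the length term (13.6% of all genes). The 6 were Mrpl12, Mrpl51, Mrps2, Mrps22, Mrps28 and Mrps6. With at least 1 CPM in all libraries the count was 7 (13% of all genes). It was 10 with DESeq2 (21.1% of all genes) and 0 to 10 with 1 library left out. Members called higher, 0 as reported, were 2 with DESeq2 (Mrpl13 and Mrpl33) and 0 to 13 with 1 library left out.  Cytosolic ribosomal proteins called lower, 0 as reported, were 1 with DESeq2 and 1 with the length term. Those called higher, 2 as reported, were 1 without a composition factor, 5 with DESeq2 and 1 with the length term. With 1 library left out, 0 to 1 of them were called lower and 0 to 40 higher. Over all genes, 9.84% were called without a composition factor, 13.6% with the length term and 0.921% to 31.4% with 1 library left out. With the replicate number as a block, 2 members (2.6%) were called lower, Mrps22 and Mrps6, with 10.8% of all genes called. The replicate numbers share only a number: deviations of same-numbered libraries correlated at 0.02, 0.05 and 0.14, and ZM replicates 1 and 2 correlated best with Ctrl replicates of another number.

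Mrps6 and Mrps22 were under the threshold in 13 of 16 alternatives and over it only without a Ctrl library, with adjusted p (edgeR) of 0.0987 to 0.140 and 0.125 to 0.149. Mrpl12 was under it in 10 and Mrps35 in 8, and Gfm1, Lrpprc, Tufm and Fastkd2 were under it in 11, 11, 10 and 12. Ppargc1b was under it in all 16. Leaving out a library also leaves fewer samples; apart from that the causes were not tested. Each member had 400 counts or more in every library.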
